A study of Mus musculus with 9 samples.

Results

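A set of 10 genes of neutrophil granules and neutrophil secretion was followed across 9 Affymetrix arrays of mouse bone marrow progenitors: S100a8, S100a9, Ngp, Camp, Ltf, Lcn2, Chil3, Wfdc21, Lyz1 and Lyz2. They are 10 of the 18193 genes that had a probe set of their own, and they had 12 such probe sets. The genes were picked because most of them read high on some E2A-/- arrays and not on others, so their levels in E2A-/- against wild type (WT) are given as a description, with no test. The choice did not rest on the Lyl1-/- arrays, and Lyl1-/- against WT was tested, though the E2A-/- arrays enter the spread of that test. The cells were sorted from bone marrow as negative for lineage markers and positive for CD117 (Kit), SCA-1 and CD135 (the receptor Flt3), which is how early multipotent progenitors are isolated. The groups were WT, E2A-/- (loss of the E protein gene Tcf3, also called E2A) and Lyl1-/- (loss of the basic helix-loop-helix gene Lyl1), with 3 arrays each. The sources used here give no strain, age, treatment, sex or number of animals per array. The labels call the arrays of a group biological replicates.

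Neutrophils make their granules in sequence as they mature. Primary granules, with myeloperoxidase and elastase, form in promyelocytes, secondary (specific) granules, with lactoferrin and cathelicidin, in myelocytes and metamyelocytes, and gelatinase granules later. Lysozyme is made over most of this course and also in monocytes and macrophages. Secondary granule genes are known targets of the transcription factor C/EBP epsilon, and they are not part of the programme of early multipotent progenitors.

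Promoter sequences are shown for the members that hold C/EBP-like letters and for the neighbouring lysozyme pair. RefSeq (GRCm38.p6) gave a promoter for 9 of the 10 genes, and the 250 bases before each transcription start were used. The letters TTGCNNAA or, on the other strand, TTNNGCAA, which resemble a C/EBP site, were found in 5 of these 9 promoters, against 9.56% of 32851 promoters of the same length. They were Ngp, Ltf, Lcn2, S100a9 and the lysozyme gene Lyz1. The promoters of Ngp at chr9:110419558-110419807 (plus strand), Ltf at chr9:111019042-111019291 (plus strand), Lcn2 at chr2:32387740-32387989 (minus strand) and S100a9 at chr3:90695722-90695971 (minus strand) are printed 5′ to 3′, with the matched letters in capitals.
Ngp: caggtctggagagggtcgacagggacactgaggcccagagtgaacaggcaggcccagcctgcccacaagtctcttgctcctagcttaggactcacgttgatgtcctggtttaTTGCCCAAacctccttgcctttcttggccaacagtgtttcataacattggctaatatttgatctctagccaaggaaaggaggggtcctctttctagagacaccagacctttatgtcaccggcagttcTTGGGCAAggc
Ltf: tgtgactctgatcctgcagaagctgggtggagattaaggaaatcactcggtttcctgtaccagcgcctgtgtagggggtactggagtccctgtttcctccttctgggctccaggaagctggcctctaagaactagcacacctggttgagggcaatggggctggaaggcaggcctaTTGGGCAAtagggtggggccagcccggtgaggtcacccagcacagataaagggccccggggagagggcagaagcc
Lcn2: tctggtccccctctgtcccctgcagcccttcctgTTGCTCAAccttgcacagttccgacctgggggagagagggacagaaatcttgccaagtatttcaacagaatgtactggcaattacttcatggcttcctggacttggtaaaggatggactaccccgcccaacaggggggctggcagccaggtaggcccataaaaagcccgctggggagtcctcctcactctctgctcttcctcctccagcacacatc
S100a9: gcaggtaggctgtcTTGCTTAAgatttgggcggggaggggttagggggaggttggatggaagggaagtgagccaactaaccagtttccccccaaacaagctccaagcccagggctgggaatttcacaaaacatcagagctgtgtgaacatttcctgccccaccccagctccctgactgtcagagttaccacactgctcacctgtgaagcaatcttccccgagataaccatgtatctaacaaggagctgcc
Ngp held 2 matches, 138 and 11 bases before its start, and Ltf 1 match 75 bases before its start. In Lcn2 the match began 216 bases and in S100a9 236 bases before the start. The promoters of the neighbouring lysozyme genes Lyz1 at chr10:117292869-117293118 (minus strand) and Lyz2 at chr10:117282273-117282522 (minus strand) were aligned with each other and had 200 identical bases over 252 aligned columns (79.4%), more than any other pair of the 9.
Lyz1: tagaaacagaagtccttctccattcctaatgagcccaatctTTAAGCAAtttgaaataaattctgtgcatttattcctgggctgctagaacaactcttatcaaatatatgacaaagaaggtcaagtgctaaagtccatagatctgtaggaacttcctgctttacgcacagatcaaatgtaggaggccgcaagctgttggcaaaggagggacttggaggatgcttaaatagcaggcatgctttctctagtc
Lyz2: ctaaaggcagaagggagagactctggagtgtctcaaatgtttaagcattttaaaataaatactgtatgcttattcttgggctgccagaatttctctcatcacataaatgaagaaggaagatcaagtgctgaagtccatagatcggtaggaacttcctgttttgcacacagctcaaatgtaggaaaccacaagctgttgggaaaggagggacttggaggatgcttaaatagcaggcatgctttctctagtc
Lyz1 held the C/EBP-like letters 209 bases before its start, while Lyz2 had none in this window. The letters GGAAGT, a core bound by ETS factors such as PU.1, searched on both strands, were in 5 of the 9 promoters against 19.7% of all. The E-box CANNTG, the kind of site E proteins bind, was in 6 of 9 against 66.2% of all, and its form CAGGTG, also searched on both strands, in 2 of 9, S100a9 and Ltf, against 17.2% of all. CAGGTG is also counted as CANNTG. Camp, S100a8 and Chil3 had no match to the C/EBP-like letters in this window, so the letters were in 4 of 7 granule promoters and 1 of 2 lysozyme promoters and did not follow the split between the groups in intensity.

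Several facts of the arrays precede the values. WT 1 and WT 3 were closer to each other than any other pair (robust spread of the log2 difference at bright probe sets 0.0827, against 0.193 to 0.375), with 0 probe sets beyond a 2-fold difference, and their mean was used as 1 WT sample. WT therefore had n = 2 and each knockout n = 3. The actin 3′ over 5′ intensity ratio was 10.6 on WT 2 and 10.1 on E2A-/- 2 and 2.85 to 4.23 on the other arrays. Hybridisation spike controls read 1201 to 1388 on the WT arrays and E2A-/- 1, and 1719 to 3194 on the other 5. The X inactivation transcript Xist read 2001 to 2362 on E2A-/- 2, Lyl1-/- 1 and Lyl1-/- 2 and 79.7 to 104 elsewhere. The genes of the sort markers CD117 and CD135 were present on every array: Kit read 314 to 508 and Flt3 672 to 1302, and no probe set was specific for the SCA-1 gene. Each array had a median intensity of 77.9 to 79.3 and a lowest value of 42.1 to 45.1, so a reading near 80 is close to background and its fold changes are understated.

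S100a8 and S100a9 encode the calcium- and zinc-binding proteins that pair as calprotectin, the most abundant protein of the neutrophil cytosol. S100a8 read 446, 335 and 469.6 on WT 1, 2 and 3, then 291, 5524 and 6214 on E2A-/- 1, 2 and 3, and 894, 736 and 391 on Lyl1-/- 1, 2 and 3. E2A-/- 2 and 3 stood 14.1-fold and 15.9-fold above the WT mean, while E2A-/- 1 lay below all WT arrays. S100a9 read 356, 272 and 332 in WT, 186, 2737 and 4723 in E2A-/-, and 679, 506 and 248 in Lyl1-/-. Its partner's pattern recurred, with E2A-/- 1 and Lyl1-/- 3 below the lowest WT array. S100a9 was also the gene that differed most between the high E2A-/- arrays, 1.73-fold higher on E2A-/- 3 than on E2A-/- 2. Because these are bulk samples, fewer cells of a type and less RNA per cell cannot be told apart here or below.

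Ngp encodes neutrophilic granule protein, a relative of the cathelicidins, and Camp encodes the cathelicidin CRAMP, an antimicrobial peptide precursor of secondary granules. Ngp read 172, 163 and 172 in WT, 149, 3991 and 3436 in E2A-/-, and 468, 281 and 152 in Lyl1-/-. At 23.8-fold and 20.5-fold over the WT mean on E2A-/- 2 and 3, it had the largest difference of the 10 genes on both arrays. Camp read 115, 118 and 104 in WT, 127, 1798 and 1982 in E2A-/-, and 225, 206 and 83.1 in Lyl1-/-. These values put E2A-/- 2 and 3 at 15.8-fold and 17.5-fold over WT and E2A-/- 1 slightly above the WT arrays.

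Ltf encodes lactoferrin, the iron-binding protein that defines secondary granules, and Lcn2 encodes lipocalin 2, which binds bacterial siderophores. Ltf read 94.3, 103 and 97.0 in WT, 101, 645 and 694 in E2A-/-, and 157, 151 and 87.3 in Lyl1-/-. Lcn2 read 73.5, 87.0 and 84.0 in WT, 84.2, 1035 and 967 in E2A-/-, and 137, 168 and 96.0 in Lyl1-/-. Both were near background in WT and on E2A-/- 1, and 6.50-fold to 12.5-fold higher on E2A-/- 2 and 3. Lcn2 was the only granule gene above every WT array on all 3 Lyl1-/- arrays.

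Chil3 encodes the chitinase-like protein Ym1, which neutrophil precursors and some macrophages secrete, and Wfdc21 encodes a small secreted protein with a whey acidic protein domain. Chil3 read 106, 107 and 107 in WT, 76.9, 1107 and 1092 in E2A-/-, and 139, 164 and 85.4 in Lyl1-/-. Of the 10 genes it varied least within WT, where the highest array exceeded the lowest by 1.01-fold. Wfdc21 read 86.9, 76.3 and 80.8 in WT, 85.04, 394 and 515 in E2A-/-, and 102, 91.8 and 81.9 in Lyl1-/-. It had the smallest difference of the 8 genes on E2A-/- 2 (4.93-fold) and stood at 6.44-fold on E2A-/- 3.

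The lysozymes did not share this split in size on a fold scale. Lyz2, the lysozyme M gene of myeloid cells, read 872, 540.5 and 845 in WT, 702, 633 and 1054 in E2A-/-, and 905, 913 and 860.3 in Lyl1-/-. E2A-/- 2 lay inside the WT range and E2A-/- 3 stood 1.55-fold above the WT mean, and the spread within WT itself was 1.61-fold, with WT 2 low. Lyz1, the lysozyme P gene best known from Paneth cells of the gut, read 3409.5, 3096 and 3527 in WT, 2871, 3767 and 3589 in E2A-/-, and 3269, 3094 and 3129 in Lyl1-/- with its brightest probe set. Another bright one read 840 to 1110.0 over the 9 arrays and gave E2A-/- 2 and 3 at 1.19-fold and 1.12-fold over WT. The third, a dim one, read 67.7 to 71.8, below the array median on every array. The bright Lyz1 probe sets carry the suffix that Affymetrix gives to probe sets that share probes with other transcripts, so signal from the neighbouring, similar Lyz2 cannot be separated from that of Lyz1.

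**Figure D1:**
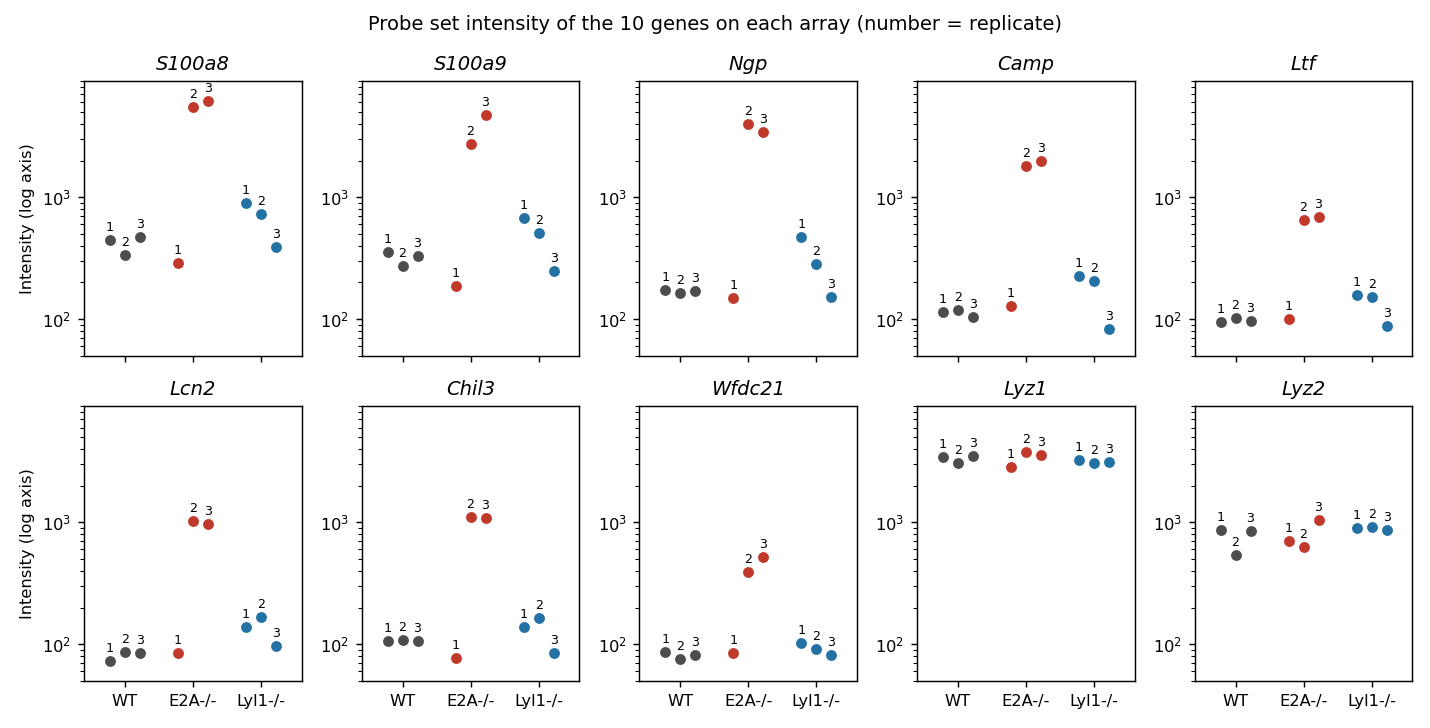
Intensity (log axis) of each of the 10 genes on each of the 9 arrays by genotype, 1 point per array, with the replicate number above it. In the 8 non-lysozyme genes E2A-/- 2 and 3 lie apart from all other arrays, followed by Lyl1-/- 1 and 2, whereas the points of Lyz1 and Lyz2 stay close together in all 3 genotypes.

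Ordered by array, the 8 non-lysozyme genes gave the same picture gene by gene. E2A-/- 2 and 3 were the 2 highest arrays in 8 of 8 genes, and Lyl1-/- 1 and 2 the next 2 in 8 of 8. The median difference of the 8 genes from the WT mean was -0.07 on the log2 scale on E2A-/- 1 (range -0.72 to 0.17), 3.51 on E2A-/- 2 (2.30 to 4.57) and 3.75 on E2A-/- 3 (2.69 to 4.36). On the Lyl1-/- arrays it was 0.86 (0.35 to 1.48), 0.74 (0.20 to 1.02) and -0.16 (-0.45 to 0.22). E2A-/- 1 read below every WT array in 4 of the 8 genes and Lyl1-/- 3 in 5 of the 8. The lysozymes lay between -0.11 and 0.63 on E2A-/- 2 and 3, so that the median of the 8 genes exceeded that of the lysozymes by 3.46 and 3.37, against -0.00 on E2A-/- 1. This contrast holds on the log2 scale. In WT Lyz1 read 3096 to 3527 and Lyz2 540.5 to 872, against 94.3 to 103 for Ltf and 76.3 to 86.9 for Wfdc21. An equal added intensity gives a smaller log2 difference where the WT reading is higher. A rise as large in intensity as that of Ltf or Wfdc21 would be a small log2 difference in Lyz1. On E2A-/- 2 and on E2A-/- 3 alike, 8 of the 8 genes and 0 of the 2 lysozymes were more than 2-fold above the highest WT array, as were 0.36% and 0.343% of the 11951 genes tested; on E2A-/- 1 it was 0 of 8, and 0.176% of all genes. These genes were chosen on this contrast, so nothing is read from the shares.

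The high E2A-/- arrays resembled each other in the amounts as well. Between E2A-/- 2 and 3, 6 of the 8 genes differed by less than 1.3-fold, with a range of 0.861-fold (Ngp) to 1.73-fold (S100a9). As group means, the 8 genes stood 1.69 (Wfdc21) to 2.92 (Ngp) above WT on the log2 scale, with a median of 2.27. Their SD over the 3 E2A-/- arrays was 1.40 to 2.68, about as large as these differences, and without E2A-/- 2 and 3 the median was -0.07, the value of E2A-/- 1. The lysozyme genes had a median of 0.12, which turned to -0.09 without WT 2, the array low in Lyz2, and to -0.01 without E2A-/- 3. E2A-/- 2 had the high actin ratio and the Xist signal, and E2A-/- 3, as high in the granule genes, had neither. Spike controls read 1719 on E2A-/- 2 and 3194 on E2A-/- 3, above the WT arrays and E2A-/- 1, and 2633 on Lyl1-/- 3, where the granule genes were not high. Fits with the actin ratio or the Xist signal as a covariate were run as alternatives, and none with the spike level. These covariates moved the E2A-/- median of the 8 genes by less than its SD over the E2A-/- arrays. That SD is large because of the split itself. What part the actin ratio, the Xist signal or the spike level has in the result was not tested.

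**Figure D2:**
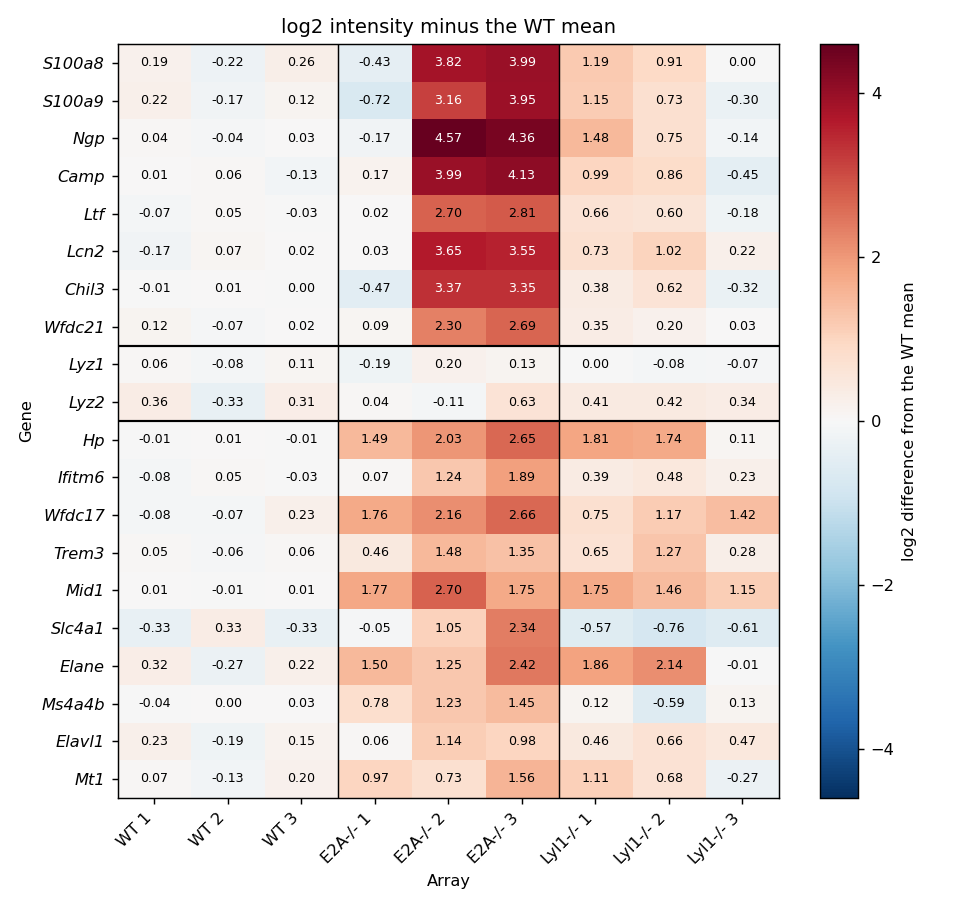
Difference of log2 intensity from the WT mean for the 8 non-lysozyme genes (top block), the lysozymes (middle) and the 10 other genes whose differences over the 9 arrays were most like the mean of the 8 (bottom), 1 column per array, with the value in each cell. The top block is high on E2A-/- 2 and 3 (2.30 to 4.57) and runs from -0.72 to 0.17 on E2A-/- 1. Several genes of the bottom block, such as Hp and Elane, are high on E2A-/- 1 as well.

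Lyl1-/- cells were compared with WT by limma, and 0 of the 10 genes passed the threshold of 0.05 after adjustment over all genes (adjusted p 0.737 to 0.984, and 0 with an unadjusted p under 0.05), where 0.192% of all tested genes passed. An unadjusted p under 0.05 was found for 3.78% of all genes in the higher and 5% in the lower direction. The difference was positive in 9 of the 10 genes and in 48.6% of all. The largest differences were in S100a8, at 0.70 on the log2 scale (SE 1.16, 95% interval -1.95 to 3.35), and Ngp, at 0.70 (SE 1.25, -2.16 to 3.56). Wfdc21 had the smallest of the 8, at 0.19 (SE 0.635). Lyz2 stood at 0.39 (SE 0.243, interval -0.17 to 0.95, limma adjusted p = 0.737) and Lyz1 at -0.05 (SE 0.13, -0.35 to 0.25). For the granule genes these intervals are wide enough to hold both a 2-fold decrease and a 2-fold increase, so neither a difference nor its absence can be read from them. The fit shares 1 estimate of spread over the genotypes, and the E2A-/- arrays, on which the members were chosen, enter it. The SD of the 8 genes was 1.40 to 2.68 over the E2A-/- arrays and 0.157 to 0.812 over the Lyl1-/- arrays. Their intervals are therefore widened by the choice of members, and that 0 passed says little about Lyl1-/-. With WT and Lyl1-/- arrays alone the adjusted p of the 10 genes lay between 0.37 (Lcn2) and 0.927 (Lyz1), and again 0 passed.

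Array by array, Lyl1-/- 1 and 2 were above every WT array in 9 of the 10 genes, as 19.2% of all tested genes were, and all 3 Lyl1-/- arrays were so in 1 (Lcn2), as 9.91% were. Only Ngp on Lyl1-/- 1 was more than 2-fold above the highest WT array, as 0.226% of all genes were on that array, and 0 members were so on Lyl1-/- 2 or 3 (0.234% and 0.117% of all genes). The median of the 8 genes was 0.50, and the lysozyme median 0.17. Lyl1-/- 1 and 2 are the Lyl1-/- arrays with Xist signal, and with Xist as a covariate the median of the 8 genes turned to -0.37. The Xist slope of that fit is shared by all genotypes, so the E2A-/- arrays, on which the members were chosen, enter this value. It is therefore not read as a value of Lyl1-/- alone. With Lyl1-/- 1 and 2 left out the median of the 8 genes was -0.16, the value of Lyl1-/- 3. Both comparisons share the WT arrays, so the order of the genes in E2A-/- and Lyl1-/- is not an independent repeat.

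**Figure D3:**
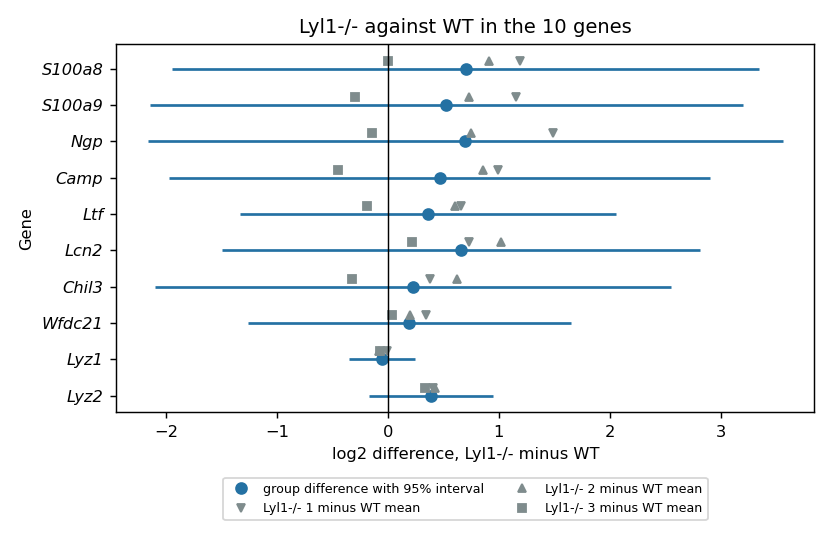
Lyl1-/- minus WT on the log2 scale for the 10 genes: circles are group differences from limma, lines their 95% intervals, and grey symbols the 3 Lyl1-/- arrays against the WT mean. All intervals include 0, and Lyl1-/- 3 (squares) lies left of the other Lyl1-/- arrays in the 8 non-lysozyme genes. The intervals carry the spread of the E2A-/- arrays as well.

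Other neutrophil genes were looked at by granule type. Over all 12 lists of genes outside the members, 110 of 169 listed genes were tested, and limma called 0 in E2A-/- and 0 in Lyl1-/- against WT after adjustment (25 and 21 with an unadjusted p under 0.05), where 0.226% and 0.192% of all genes were called. In E2A-/- an unadjusted p under 0.05 was found for 3.22% of all genes in the higher and 5.36% in the lower direction. The genes are therefore given by value. As a measure of the split seen in the 8 genes, chosen after the values were seen, genes were counted that stood over 0.5 on the log2 scale above the WT mean on E2A-/- 2 and 3 and not on E2A-/- 1. Of all tested genes 0.611% did so.

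Primary granule genes followed another order of arrays than the 8 genes in E2A-/-, but not in Lyl1-/-. Their list medians on Lyl1-/- 1, 2 and 3 were 0.78, 0.41 and -0.10. Of 11 tested, 10 had a positive difference in E2A-/-, as 46.3% of all genes did (median 0.51, against -0.01 over all genes), with list medians of 0.60, 0.19 and 0.59 on E2A-/- 1, 2 and 3. Elane, the neutrophil elastase gene, read 180.0, 119 and 168 in WT, 408, 342 and 768 in E2A-/-, and 523, 635 and 143 in Lyl1-/-. All 3 E2A-/- arrays were thus above every WT array in Elane, E2A-/- 1 included, as 7.46% of all genes were (log2 difference 1.72, SE 0.606, limma adjusted p = 0.47). Serpinb1a, an inhibitor of granule proteases, read 1659, 1348 and 1786 in WT against 2768, 1857 and 1984 in E2A-/-, highest on E2A-/- 1. Cst7, the cystatin F gene, was also highest there, at 727, against 333 to 432 in WT. Ctsc, the gene of a protease that activates granule proteases, stood at 0.07 in E2A-/- and 0.28 in Lyl1-/- (limma adjusted p = 0.961 and 0.593). The split was seen in 0 of the 11 tested primary granule genes. Mpo, the myeloperoxidase gene, read 4999.7 to 7119 in WT and 5131, 3706 and 4487 in E2A-/-, so its lowest E2A-/- array was E2A-/- 2. Ms4a3, a marker of granulocyte and monocyte progenitors, read 121 to 147 in WT and 276, 166 and 633 in E2A-/-. Mpo and Ms4a3 were singled out after their values were seen, as were the genes given below as dim.

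The other specific granule and neutrophil precursor genes lay between these patterns. Of 24 listed, 22 had a probe set and 14 were tested, of which 12 had a positive difference in E2A-/- (median 0.46). Hp, the haptoglobin gene, stored in granules of neutrophil precursors, read 106, 107 and 106 in WT, 298, 432 and 665 in E2A-/-, and 371, 356 and 114 in Lyl1-/-. Its difference was 2.05 in E2A-/- (SE 0.508, limma adjusted p = 0.242) and 1.22 in Lyl1-/- (limma adjusted p = 0.554). Unlike the 8 genes it was high on E2A-/- 1 as well. Ncf1, the p47phox subunit of the phagocyte oxidase, read 189 to 230 in WT and 386, 307 and 262 in E2A-/-, highest on E2A-/- 1 (log2 difference 0.60, SE 0.167, limma adjusted p = 0.32). Anxa1, the annexin A1 gene, was nearly level over E2A-/- (1387, 1381 and 1488, against 941 to 1099 in WT) and read 633 to 718 in Lyl1-/-. Its differences were 0.50 and -0.55 (limma adjusted p = 0.177 and 0.17). Mgst1, a glutathione transferase gene, stood at -0.06 in E2A-/- and -1.16 in Lyl1-/- (limma adjusted p = 0.982 and 0.128). By the cut-off of 0.5, the split of the 8 genes was seen in 0 of the 14 tested genes of this list. Some missed it narrowly on 1 array. On E2A-/- 1, 2 and 3, Fcnb stood at -0.05, 0.48 and 0.98 and Lrg1 at 0.07, 0.85 and 0.48. Itgb2 stood at 0.11, 0.79 and 0.48, and Ltb4r1 at 0.31, 0.49 and 0.84. These genes were singled out after their values were seen. Of its 8 dim genes, which were left out of the test, 2 showed it, Cd177 and Cybb. Cd177, a neutrophil surface protein gene, read 58.5 to 63.5 in WT, 62.9 on E2A-/- 1, and 139 and 133 on E2A-/- 2 and 3. Cybb, the gp91phox subunit of the phagocyte oxidase, read 65.8 to 71.0 in WT and 64.7, 131 and 118 in E2A-/-. On the Lyl1-/- arrays both stayed at 59.6 to 71.3, close to WT. Itgam, which encodes the CD11b chain of a lineage marker of myeloid cells, read 59.1 to 67.5 over all 9 arrays, below the array median, with 62.9 and 62.8 on E2A-/- 2 and 3. The collagenase gene Mmp8 read 112 on E2A-/- 2, but 70.5 on E2A-/- 3 and 66.5 to 68.9 in WT.

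By list median, genes of gelatinase granules and mature neutrophils stood nearer to WT. Many of them, such as Mmp9, Cxcr2 and Trem3, read close to background in WT, where fold changes are understated. All 14 tested had a positive difference in E2A-/-, with a median of 0.29, and list medians of 0.07, 0.32 and 0.35 on E2A-/- 1, 2 and 3. Trem3, a receptor of myeloid cells, read 69.3 to 75.3 in WT, 99.4, 201 and 184 in E2A-/-, and 113, 174 and 87.2 in Lyl1-/-. Its order of arrays was that of the 8 genes (log2 difference in E2A-/- 1.10, SE 0.344, limma adjusted p = 0.399). Selplg, the selectin ligand gene, and Fcgr3, an Fc receptor gene, stood at 0.23 and 0.48 in E2A-/- (limma adjusted p = 0.655 and 0.436), and Selplg at 0.28 in Lyl1-/- (0.519). The split was seen in 3 of the 14 tested genes, Ceacam1, Ifitm6 and Trem3, and in 1 of the 4 dim ones, Fpr2. Clec4d, a C-type lectin of neutrophils and monocytes, was above WT on all 6 knockout arrays, at 380 to 481 in E2A-/- and 338 to 390 in Lyl1-/-, against 261 to 265 in WT (limma adjusted p = 0.0885 and 0.258). Fpr2, a formyl peptide receptor that cathelicidin can activate, was dim, at 68.7 to 72.9 in WT and 71.7, 166 and 149 in E2A-/-. Cxcr2, the chemokine receptor of mature neutrophils, read 80.6 to 84.3 in WT and 82.4, 98.2 and 88.4 in E2A-/-. Mmp9, the gelatinase gene, read 72.1 to 73.4 in WT and 76.7, 121 and 89.6 in E2A-/-. The receptor gene Csf3r, expressed from early progenitors on, read 339 to 551 in WT and 572, 476 and 365 in E2A-/-, inside or near the WT range. Fpr2, Cxcr2, Mmp9 and Csf3r were singled out after their values were seen.

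**Figure D4:**
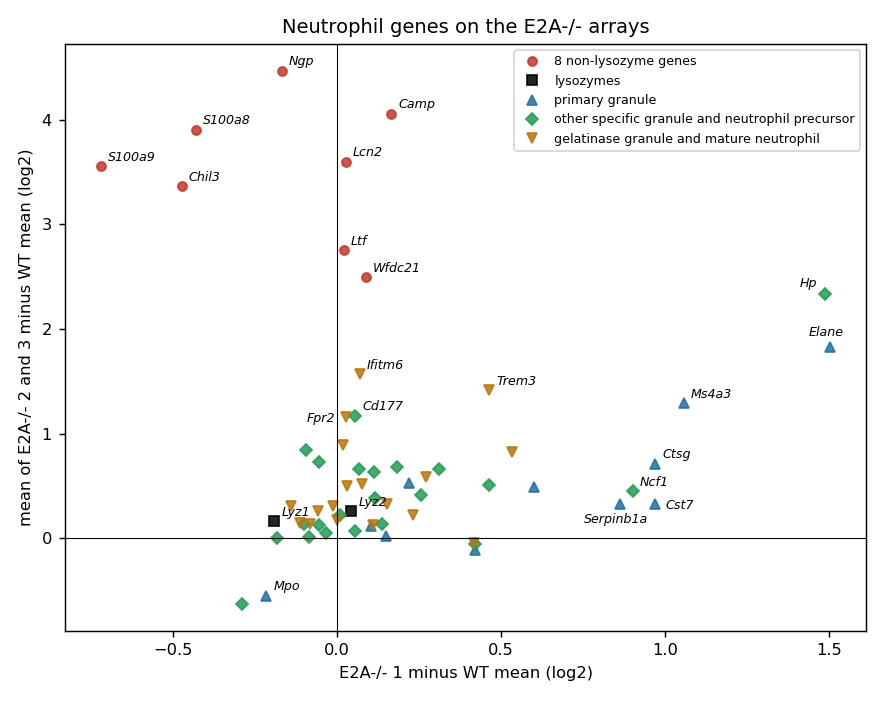
Difference from the WT mean (log2) on E2A-/- 1 (horizontal axis) against the mean difference on E2A-/- 2 and 3 (vertical axis) for the members and the listed neutrophil genes with a probe set, 1 symbol per gene by list. The 8 non-lysozyme genes stand high on the vertical axis with values from -0.72 to 0.17 on the horizontal one, the primary granule gene Elane and Hp are high on both, and the lysozymes lie near the origin.

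Transcription factors of the granulocyte programme had medians near 0 on every array. Of 13 tested, 7 had a positive difference in E2A-/- (median 0.06) and 9 in Lyl1-/- (median 0.06). Cebpa, which starts granulocyte commitment, read 95.7 to 101 in WT, 99.6, 121 and 104 in E2A-/-, and 172, 164 and 103 in Lyl1-/- (log2 difference 0.56 in Lyl1-/-, limma adjusted p = 0.487). Gfi1, a repressor needed for neutrophil maturation, read 258 to 291 in WT, 302, 365 and 227 in E2A-/-, and 162, 164 and 226 in Lyl1-/- (-0.59, limma adjusted p = 0.458). Both genes stood farthest from WT on Lyl1-/- 1 and 2. E2A-/- arrays lay outside the WT range as well, with Gfi1 above it on E2A-/- 1 and 2 and below it on E2A-/- 3, and Cebpa above it on E2A-/- 2 and 3. The split was seen in 0 of the 13 tested factors. Cebpd missed it narrowly on E2A-/- 3, with 0.33, 0.86 and 0.45 on E2A-/- 1, 2 and 3 (group difference 0.55, limma adjusted p = 0.6). Spi1, the gene of PU.1, went the other way, with 0.24, -0.50 and -0.42. Cebpd and Spi1 were singled out after their values were seen. Runx1 and Myb, factors of stem and progenitor cells, lay at -0.46 and -0.33 in E2A-/- (limma adjusted p = 0.441 and 0.399). Cebpe, which encodes C/EBP epsilon, had no probe set of its own.

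Other S100 genes, relatives of S100a8 and S100a9 that are not neutrophil genes in particular, were listed together with receptors of the proteins. The split was seen in 1 of the 11 tested genes of this list, S100a10. S100a4 read 179 to 188 in WT, 287, 309 and 379 in E2A-/-, and 275, 244 and 302 in Lyl1-/-, with all knockout arrays above WT (limma adjusted p = 0.0885 and 0.231). S100a6 read 214 to 282 in WT and 365, 510.5 and 441 in E2A-/- (log2 difference 0.77, limma adjusted p = 0.203). It stood at 0.51, 1.00 and 0.79 on E2A-/- 1, 2 and 3, so it missed the split narrowly, on E2A-/- 1. S100a10, the partner of annexin A2, stood at 0.26, 0.73 and 0.68 on E2A-/- 1, 2 and 3 (group difference 0.56, limma adjusted p = 0.39), and S100a1 read 260.4 to 275 in WT and 477, 404 and 302 in Lyl1-/-. Of 11 tested S100 and receptor genes 5 had a positive difference in E2A-/-, with a median of -0.02.

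The genes lying between members on a chromosome were also read. S100a8 and S100a9 on chromosome 3 and Lyz2 and Lyz1 on chromosome 10 are direct neighbours, with 0 genes listed between them in RefSeq. Camp, Ngp and Ltf lie on chromosome 9, with 18 genes between Camp and Ngp and 25 between Ngp and Ltf. The 7 tested genes between Camp and Ngp had E2A-/- differences of -0.41 to 0.08, and the 10 between Ngp and Ltf -0.25 to 0.05. On E2A-/- 2 these neighbours ran from -0.55 to 0.44 and from -0.29 to 0.20, against 3.99, 4.57 and 2.70 for Camp, Ngp and Ltf.

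Markers of other cells that a sort could hold were read for the same split, which was seen in 1 of 13 tested monocyte and macrophage genes (Lgals3), 1 of 7 erythroid genes (Slc4a1) and 0 of the tested eosinophil, basophil and mast cell, B cell, T and NK cell, dendritic cell and sort genes. Of 20 monocyte and macrophage genes 13 were tested, 11 with a positive difference in E2A-/- (median 0.14). Their summed intensity was 2186 to 2591 in WT, 2859 to 3807 in E2A-/- and 3068 to 3316 in Lyl1-/-, so all knockout arrays were above the WT range, E2A-/- 1 included. Ms4a6c, a membrane protein gene of monocytes, read 203 to 289 in WT and 638, 466 and 685 in E2A-/-, above every WT array on all 3 (log2 difference 1.33, SE 0.243, limma adjusted p = 0.116). Cd68, a macrophage lysosome gene, read 96.2 to 133 in WT and 235, 140 and 214 in E2A-/- (0.76, limma adjusted p = 0.633). Lgals3, the galectin 3 gene, had the split, with -0.24, 0.86 and 0.93 on E2A-/- 1, 2 and 3, but was highest on Lyl1-/- 3, at 1.90. Ctss, a lysosomal protease gene of antigen-presenting cells, stood at 0.14 in E2A-/- and -0.99 in Lyl1-/- (limma adjusted p = 0.96 and 0.297). Cd14 and Adgre1, markers of monocytes and macrophages, read 77.1 to 84.6 and 72.1 to 85.05 over the 9 arrays. Lgals3, Cd14, Adgre1 and, below, Ms4a1 were singled out after their values were seen. Csf1r, the receptor for macrophage colony-stimulating factor, read 289.9 to 383 in WT, 425, 330.0 and 681 in E2A-/-, and 1310.3, 1117 and 532 in Lyl1-/- (log2 difference in Lyl1-/- 1.47, SE 0.408, limma adjusted p = 0.317). The macrophage complement genes C1qa, C1qb and C1qc were below the filter. Of 12 erythroid genes 7 were tested, 6 with a positive difference in E2A-/- and 0 in Lyl1-/-, and their sum was 1581 to 2257 in WT, 1747 to 3235 in E2A-/- and 1224 to 1679 in Lyl1-/-. Car1, a carbonic anhydrase of red cell precursors, read 131 to 196 in WT and 741, 199 and 638 in E2A-/-, so it was high on E2A-/- 1 and 3 and not on E2A-/- 2. Slc4a1, the red cell anion exchanger gene, had the split, with -0.05, 1.05 and 2.34. Klf1, an erythroid transcription factor gene, stood at 0.96, 0.15 and 1.05 on E2A-/- 1, 2 and 3, and the blood group gene Ermap at 0.66, 0.30 and 1.55. Of 11 eosinophil, basophil and mast cell genes 6 were tested, with sums of 728 to 961 in WT, 669 to 1268 in E2A-/- and 501 to 1102 in Lyl1-/-. Prg2, the eosinophil major basic protein gene, read 160.1 to 341 in WT, 56.5, 293 and 511 in E2A-/-, and 399, 82.6 and 77.5 in Lyl1-/-, another order again. The other named genes of this list, Epx, Cpa3 and Siglecf, stood at -0.16, 0.37 and 0.19 in E2A-/- (limma adjusted p 0.667 to 0.963). B cell, T and NK cell and dendritic cell lists had E2A-/- medians of -0.07, 0.17 and -0.00 over 6, 5 and 7 tested genes. Their sums were 2336 to 3313 in WT and 1430.1 to 2344 in E2A-/- (B cell), 1052 to 1288 and 1442 to 1927 (T and NK cell), and 1974 to 2310.3 and 1979 to 2170.2 (dendritic cell). The B cell marker Ms4a1 read 59.1 to 65.7 on all arrays. In E2A-/- the B cell genes Cd79b, Vpreb1, Ighm and Cd22 stood at 0.03, -0.39, -0.64 and -0.02, the T and NK cell genes Cd3e, Cd8a, Thy1 and Nkg7 at -0.08, 0.17, 0.38 and 0.67, and the dendritic cell genes Ccr9, Bst2 and H2-Ab1 at -0.90, 0.05 and 0.36, with limma adjusted p of 0.343 to 0.989. The 4 sort genes tested, Kit, Flt3, Cd34 and Ptprc, had medians of 0.04, -0.07 and -0.38 on E2A-/- 1, 2 and 3 and of -0.32, -0.23 and -0.12 on the Lyl1-/- arrays. What part cells outside the sort phenotype have in the granule readings was not tested.

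**Figure D5:**
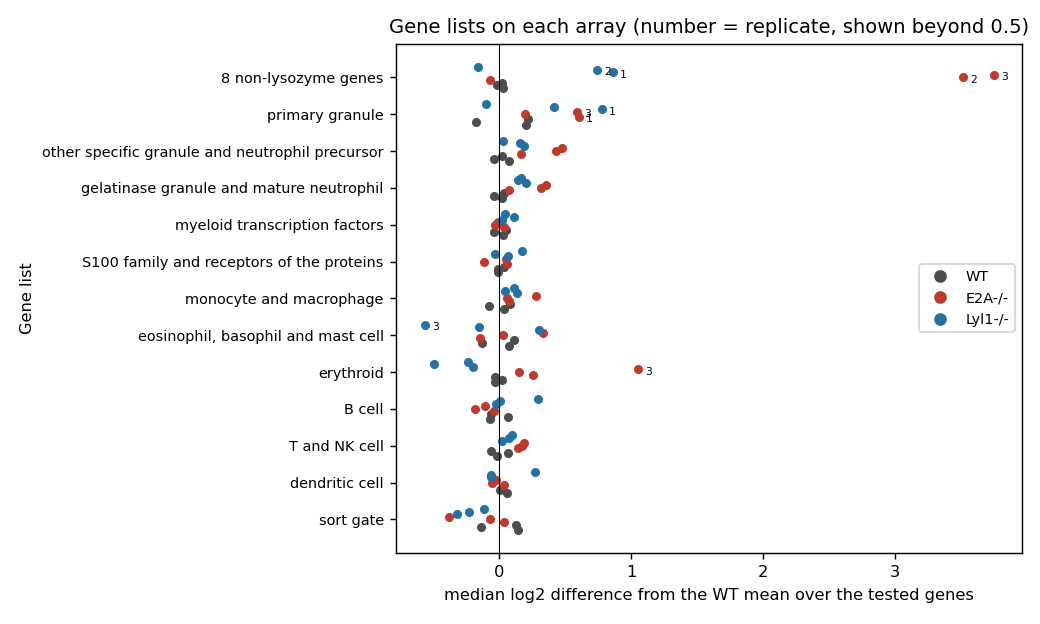
Median difference from the WT mean (log2) over the tested genes of each list, 1 point per array coloured by genotype, with the replicate number printed beyond 0.5. The 8 non-lysozyme genes reach 3.51 and 3.75 on E2A-/- 2 and 3, while no other list exceeds 1.05, the erythroid value of E2A-/- 3.

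The 10 tested genes outside the members whose differences from WT over the 9 arrays lay closest to the mean of the 8 genes were Hp, Ifitm6, Wfdc17, Trem3, Mid1, Slc4a1, Elane, Ms4a4b, Elavl1 and Mt1. Closeness was the root mean square of the log2 distance, which was 0.928 for Hp and 1.201 for Mt1, against 0.208 (Lcn2) to 0.557 (Wfdc21) for the 8 genes themselves and 1.57 and 1.63 for Lyz2 and Lyz1. The mean holds the 8 genes themselves, which brings them nearer, and the likeness is a description over 9 arrays that include the E2A-/- arrays used to pick the members. Ifitm6, an interferon-induced transmembrane family gene of myeloid cells, had E2A-/- 2 and 3 highest and Lyl1-/- 1 and 2 next, as the 8 genes did, with 74.7 to 81.8 in WT, 82.7, 186 and 293 in E2A-/-, and 103, 110.1 and 92.4 in Lyl1-/-. Wfdc17, a relative of Wfdc21 in the same protein family, was higher on all 3 E2A-/- arrays (1.76, 2.16 and 2.66 on the log2 scale). It was also above every WT array on all 3 Lyl1-/- arrays (0.75, 1.17 and 1.42). Slc4a1 was high on E2A-/- 2 and 3 and below WT on the Lyl1-/- arrays (-0.57 to -0.76).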

How the data were processed

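The values deposited by the authors are 1 linear intensity per probe set and array. RMA and oligo are named, without a version, per the submitters' processing notes. Beyond these names, no source used here gives the settings of the processing, such as those of background correction. The arrays already had nearly the same distribution. Here log2 was taken without a pseudocount, 64 control probe sets of 45101 were left out, and genes were named from GEO's platform annotation, using the 34945 probe sets with 1 gene (932 had several genes, 9160 none). For each gene the probe set with the highest mean stood in, and the test took the 11951 genes that exceeded their array's median on 3 or more arrays. All 10 members passed, 8 of them with all 3 WT arrays above the median; Lcn2 and Wfdc21 had 2.

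WT 1 and WT 3 were averaged, and a linear model with 3 genotypes was fitted to 8 samples (5 residual degrees of freedom) with limma 3.58.1 in R 4.3.3, with Benjamini-Hochberg adjustment over all tested genes and a threshold of 0.05. Precision is limited by the number of arrays. The fit was tested on simulated data. Members, lists and tests were chosen with earlier results of these data known. Named were all members, up to 4 genes per list with the smallest p in either comparison, the 10 genes most like the 8 non-lysozyme members, and genes said to be chosen after their values were seen. Alternatives covered normalization, filter, probe sets, samples, covariates, a constant subtracted, and arrays left out.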

Additional observations from a re-analysis of the deposited data

Results flagged for a closer look

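A probe set shared by Chil4 and Chil3, which entered no gene test because it is annotated to both, read 183.3 on E2A-/- 2 and 172.5 on E2A-/- 3, more than 2-fold above the highest WT array (79.4). It read 74.0 on E2A-/- 1 and 75.3 to 91.1 on the Lyl1-/- arrays. It is listed here because it carries signal outside the tested probe sets, and which of the 2 genes gives the signal cannot be told from it.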

How the results depend on the processing

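Of the 10 members 0 were called in Lyl1-/- against WT by limma as reported and under all 23 alternatives, where adjusted p ranged from 0.37 to 1.00. In E2A-/- the median of the 8 non-lysozyme genes was 1.57 to 3.58 with single arrays left out, and -0.074 without both E2A-/- 2 and E2A-/- 3. In Lyl1-/- it was 0.21 to 0.90 with single arrays left out, -0.37 with the sex covariate and -0.16 without both Lyl1-/- 1 and Lyl1-/- 2, an alternative chosen after seeing the data. The E2A-/- arrays enter the slope of the sex covariate as well. The lysozyme median in Lyl1-/- (0.17) was 0.13 with another quantile normalization, -0.023 with each probe set fitted on its own, 0.10 with 9 separate samples or the replicate block, 0.083 with the actin covariate, 0.14 without both Lyl1-/- 1 and Lyl1-/- 2, and -0.038 to 0.19 with single arrays left out; in E2A-/- it was -0.089 to 0.21. The cause of these shifts was not tested.

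Of all genes, 27 were called in E2A-/- and 23 in Lyl1-/-. The arrays whose loss moved a count by over 1.5 times were, for E2A-/-, WT 2 (8), E2A-/- 3 (15), Lyl1-/- 1 (13) and Lyl1-/- 2 (12), and for Lyl1-/-, WT 2 (7), Lyl1-/- 1 (7) and Lyl1-/- 2 (8). The counts were 45 and 44 with each probe set, 10 and 15 with only the groups compared, 97 and 93 with 9 separate samples, 60 and 55 with the replicate block over these 9, 15 and 7 with the sex covariate, 6 and 15 without both E2A-/- 2 and E2A-/- 3, and 10 and 1 without both Lyl1-/- 1 and Lyl1-/- 2. The actin covariate gave 12 in Lyl1-/-. With single arrays left out they ran from 8 to 36 and from 7 to 34. Arrays of the same replicate number deviated together weakly or not at all (correlations of -0.14 to 0.22, best match to the own number in 8 of 18 cases), so the numbers were not taken as pairs. The check is limited, as WT 1 and WT 3 were nearly alike. WT 2 and E2A-/- 2 did share a high actin ratio (10.6 and 10.1). Depth does not apply to arrays; readings near the lowest intensities (42.1 to 45.1) understate differences, and with 40 subtracted before log2 the E2A-/- median of the 8 genes was 2.46 instead of 2.27.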
